A study of Mus musculus with 6 samples.

Results

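The miR-29 family of the mouse consists of 4 precursors, mmu-mir-29a, mmu-mir-29b-1, mmu-mir-29b-2 and mmu-mir-29c, written below without the species prefix. They were taken by name from the 855 miRNA precursors of the table. All 4 passed the filter on low values (a mean of at least 10 RPKM), as did 461 of the 855. The data are small RNA-seq of whole retina from mice aged 4 weeks, on a mixed C57BL/6J and SJL background. Both groups carried floxed Dicer1 alleles (Dicerfl/fl). The 3 control libraries came from animals without the iCre75 transgene (iCre75-) and the 3 cKO libraries from animals with it (iCre75+), which expresses Cre recombinase in rod photoreceptors and so removes Dicer1 there and not in the other retinal cells. Each library was a pool of 6 retinas. The labels call the libraries biological replicates, and the sources used here do not say which mice entered which pool. The p-values below measure the spread between these pools.

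miRNAs are cut from hairpin precursors, and Dicer, the product of Dicer1, makes the last cut that frees the short duplex from the hairpin. A mature miRNA then guides Argonaute to mRNAs that pair with its seed, the bases near its 5′ end. The miR-29 family is known as a set of maturation miRNAs: its members increase as neurons and glia mature, and their known targets include mRNAs of collagens and other matrix proteins, of DNA methyltransferases and of proapoptotic BH3-only proteins. The 4 genes form 2 clusters, mir-29a with mir-29b-1 and mir-29b-2 with mir-29c. In the RefSeq gene table (GRCm38.p6) the second pair lies inside the lncRNA gene A330023F24Rik, on the same strand, while the first pair lies in no other gene, between Gm40359 and Lncpint.

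The mature sequences are shown because they decide which members can be told apart. The 4 hairpins give only 3 different 3p miRNAs, here as in RefSeq (GRCm38.p6), written 5′ to 3′ with the seed (bases 2 to 8) in capitals.
miR-29a-3p: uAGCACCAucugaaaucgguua
miR-29c-3p: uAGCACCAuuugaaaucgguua
miR-29b-3p, from both mir-29b-1 and mir-29b-2: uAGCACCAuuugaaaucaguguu
All 3 have the same seed, and no other of the 1679 mature miRNAs in the table has it. Counted from 1 at the 5′ end, miR-29a-3p and miR-29c-3p differ over their whole length by the single substitution C10U. From miR-29c-3p to miR-29b-3p the substitutions are G18A, U21G and A22U, after 17 identical bases. The last bases of miR-29b-3p, AGUGUU, are known as an element that directs this miRNA to the nucleus. Among the family miR-29b-3p alone ends in it, and 12 of the 1679 mature miRNAs hold it anywhere (0.715%).

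The 5p strands, the passenger side of each hairpin, differ more and are the only annotated mature product in which the miR-29b copies can be told apart.
miR-29a-5p: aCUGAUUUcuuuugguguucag
miR-29c-5p: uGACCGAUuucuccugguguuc
miR-29b-1-5p: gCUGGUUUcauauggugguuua
miR-29b-2-5p: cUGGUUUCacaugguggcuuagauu
Capitals again mark bases 2 to 8, and these differ between all 4 strands. The 2 miR-29b 5p strands, shifted by 1 base against each other, differ at U11C and U19C (counted in miR-29b-1-5p) over the 21 bases they share. The deposited values are per precursor, so no level of a single strand is given.

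The read counts were nearly equal between members with the same or almost the same 3p sequence, and not between members of a cluster. The unit is RPKM, reads divided by precursor length and by library reads. Because each value is a whole number of reads divided by known quantities, the reads could be worked out. At mir-29b-1 and mir-29b-2, whose 3p sequence is the same although they sit in different clusters, there were 910 and 914 reads in control 1, 1575 and 1576 in control 2, and 1630 and 1632 in control 3. In cKO 1 to 3 there were 1352 and 1361, 2039 and 2046, and 1716 and 1721 reads. The counts of the copies therefore never differed by more than 0.666%. At mir-29a and mir-29c, which also sit in different clusters, there were 5796 and 6057 reads in control 1, 8419 and 8754 in control 2, and 8548 and 8865 in control 3. In cKO 1 to 3 there were 7969 and 8145, 10809 and 10960, and 8882 and 9000 reads. The sum of reads over all precursors was 1.55 to 1.56 times the library total worked out from RPKM in the controls. In the cKO libraries it was 1.77 to 1.86 times that total. A read could thus be counted at more than 1 precursor, and the extent differed between the groups. The counts thus do not show the output of each cluster. The sources used here do not say whether an alignment with a mismatch was accepted. The 4 rows are therefore treated as about 2 measurements, miR-29a/c and miR-29b, and counts of members below are not counts of separate results.

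The miR-29 precursors are moderately abundant in the retina. Per length, mir-29c was the highest in each of the 6 libraries, followed by mir-29a, mir-29b-1 and mir-29b-2. Over the tested precursors they took places 68, 72, 119 and 123 by mean RPKM. In control retina mir-29c held 0.111% ± 0.0261 and mir-29a 0.107% ± 0.0255 of library reads (SD, n = 3 each). The share of mir-29b-1 was 0.0194% ± 0.00623 (SD, n = 3). The Wilson 95% interval of the mir-29a share in control 1 (0.0775%) ran from 0.0755% to 0.0795%, so counting error was far below the spread between libraries. Such intervals cover counting error only, since PCR copies are not independent molecules. The difference between mir-29c and mir-29a was smaller than the spread of either between libraries, but within a library mir-29c was the higher in all 6, by more than the spread of their ratio given below. That of mir-29b-1 over mir-29b-2 comes from division by hairpin length (71 against 81 bases), as the reads at mir-29b-2 were 1 to 9 higher.

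As deposited, no member of the family passed the test between genotypes, and the groups overlapped for all 4. mir-29a stood at 8807, 13877 and 13756 RPKM in control 1 to 3 and at 13075, 17765 and 18415 RPKM in cKO 1 to 3. cKO 2 and cKO 3 lay above every control, while cKO 1 lay below control 2 and control 3. The controls averaged 12147 ± 2893 RPKM and the cKO libraries 16418 ± 2913 RPKM (SD, n = 3). The fold change was 1.37 with a 95% interval of 0.999 to 1.87 (log2 0.45, SE 0.20; limma, Benjamini-Hochberg adjusted p = 0.068).

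mir-29c gave almost the same picture, as the near-equal reads imply. It stood at 9204, 14429 and 14266 RPKM in control 1 to 3 and at 13364, 18013 and 18660 RPKM in cKO 1 to 3. Again control 1 was the lowest of all libraries and cKO 1 lay among the controls. The fold change was 1.33 with a 95% interval of 0.979 to 1.82 (log2 0.42, SE 0.20; limma adjusted p = 0.084).

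The miR-29b precursors had a slightly higher mean change and a wider spread. mir-29b-1 stood at 1714, 3218 and 3251 RPKM in control 1 to 3 and at 2750, 4153 and 4410 RPKM in cKO 1 to 3. Its fold change was 1.41 with a 95% interval of 0.937 to 2.12 (log2 0.50, SE 0.26; limma adjusted p = 0.11). mir-29b-2, with almost the same reads over a longer hairpin, ranged from 1509 to 2853 RPKM among the controls and from 2426 to 3877 RPKM among the cKO libraries (log2 0.50, SE 0.26; limma adjusted p = 0.11). For both copies cKO 1 lay within the range of the controls. These intervals, which hold for the values as deposited, reach from about no change to about 1.8- or 2.1-fold for all 4 members. The test thus does not show that the family was unaltered.

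**Figure D1:**
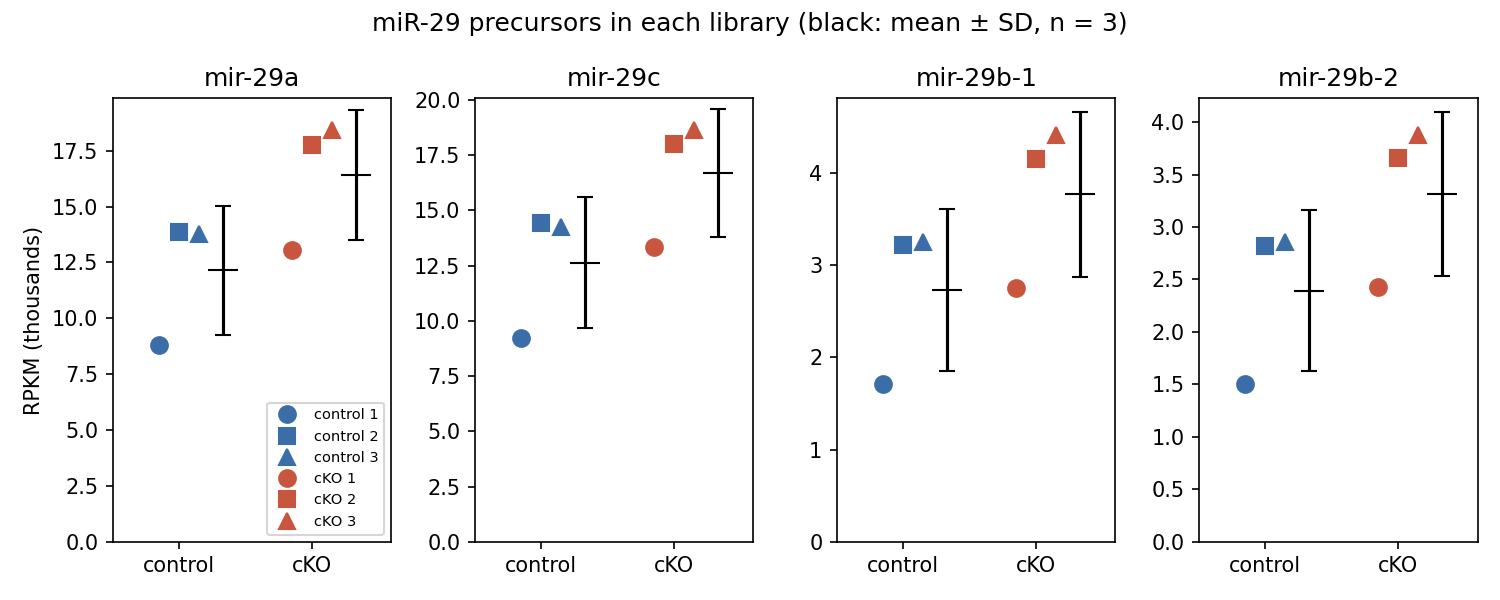
RPKM of each miR-29 precursor as deposited (y axis, in units of 1000, from 0) in the 3 control (blue) and 3 cKO (red) libraries, with the mean ± SD in black. cKO 2 and cKO 3 lie above all controls, whereas cKO 1 lies within their range, and the direction turns with median-of-ratios scaling.

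These changes lay below the median of the table. As deposited 320 of 461 precursors (69.4%) rose and 8 (1.74%) fell, against 0 and 0 of the 4 miR-29 precursors. In 71.6% of precursors all cKO libraries lay above all controls, against 0 of 4 here. The family had a median log2 fold change of 0.47, against 0.74 over all tested precursors, and the members stood at the 20.4th to 27.3rd percentile of all log2 fold changes. RPKM depends on the other miRNAs of a library, and mir-182, the photoreceptor miRNA that dominates these libraries, averaged 7295946 ± 311516 RPKM in the controls and 4024508 ± 429841 RPKM in the cKO libraries (SD, n = 3). With totals counted without mir-182, the log2 fold changes of the family were -0.13 to -0.21, and none passed (limma adjusted p = 0.46 to 0.75). In such bulk samples fewer cells of a type and less RNA per cell cannot be told apart.

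When the libraries were instead scaled by the median of ratios, so that the typical precursor is level, all 4 members turned to the other side of 0. The log2 fold change was then -0.29 for mir-29a, -0.32 for mir-29c and -0.24 for both mir-29b-1 and mir-29b-2, and again none passed (limma adjusted p = 0.25 to 0.61). The 95% interval of the fold change was 0.621 to 1.08 for mir-29a and 0.583 to 1.23 for mir-29b-1. The scaled values of mir-29a were 11979, 18401 and 16389 in control 1 to 3 and 10546, 13286 and 14206 in cKO 1 to 3. All cKO libraries thus lay below control 2 and control 3, and control 1 lay among the cKO libraries. Under this scaling 10 precursors (2.17%) rose and 46 (9.98%) fell, and the median over all precursors was 0.014 on the log2 scale.

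**Figure D2:**
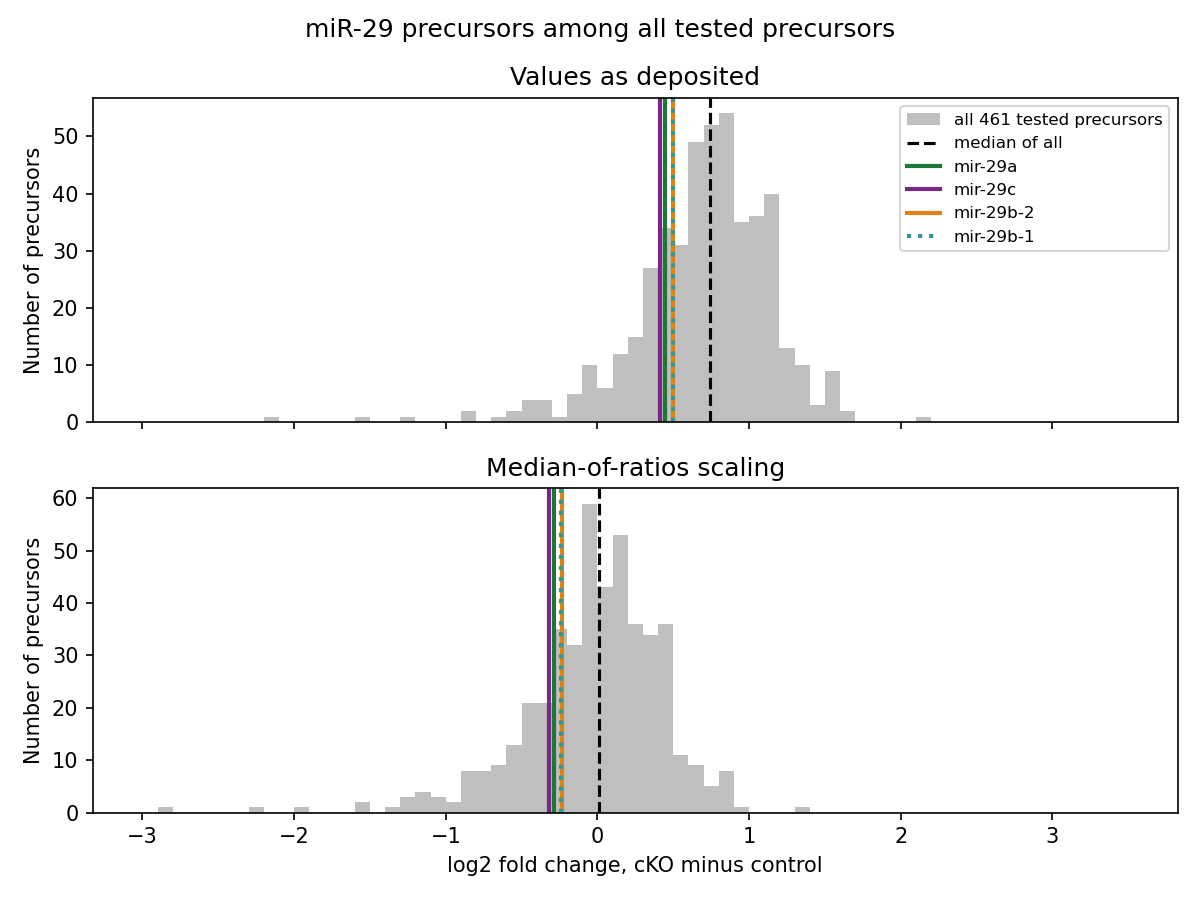
Histograms of the log2 fold change (cKO minus control, x axis) of 461 tested precursors, as deposited (top) and with median-of-ratios scaling (bottom), with the median dashed and the miR-29 precursors as coloured lines. The members lie below the median in both panels, on the positive side as deposited and on the negative side after scaling.

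The spread within each group came mainly from its first library. In control 1 mir-29b-1 was 0.530 times its geometric mean in control 2 and control 3, and mir-29a was 0.637 times. In cKO 1 the same ratios to cKO 2 and cKO 3 were 0.643 and 0.723. The typical precursor was also lower in these libraries but by less, with a median log2 difference of -0.18 for control 1 and -0.13 for cKO 1, against -0.92 and -0.64 for mir-29b-1. Only 25 of 461 precursors were lower than mir-29b-1 in this respect in control 1 and 32 in cKO 1. For mir-29a and mir-29c these numbers were larger, at 50 and 51 in control 1 and 66 and 70 in cKO 1. Without cKO 1 all 4 members passed, at log2 fold changes of 0.57 to 0.71 (limma adjusted p = 0.023 to 0.036), where 62.7% of all precursors rose and 1.52% fell. Without control 1 they stood at 0.19 to 0.23 (adjusted p = 0.21 to 0.41), and 0 of 4 passed, where 60.1% rose and 2.6% fell. All 4 also passed with array weights, where 75.7% rose and 3.04% fell, and with the replicate number as a block, where 73.3% rose and 2.17% fell. With the block and median-of-ratios scaling none passed, where 3.47% rose and 9.98% fell. By the totals worked out from the RPKM values, control 1 had the most reads of all libraries (7478237) and cKO 1 the most of its group (6925715). cKO 2 had 6914307 reads and higher miR-29 values. A part of library size in these values was not tested.

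Ratios between members within a library do not depend on scaling, and 6 pairs were compared. The reads at mir-29b-1 were 15.7%, 18.7% and 19.1% of those at mir-29a in control 1 to 3 and 17.0%, 18.9% and 19.3% in cKO 1 to 3. The groups overlapped, and the difference in the log2 ratio of mir-29a to mir-29b-1 was -0.047 (exact two-sided permutation p = 0.6, adjusted over 6 pairs p = 0.6). The balance of miR-29a/c and miR-29b thus differed by less than the spread between libraries. Without control 1 this difference was 0.041 and so changed sign.

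The single pair without overlap was mir-29a and mir-29c. Reads at mir-29c exceeded those at mir-29a by 4.50%, 3.98% and 3.71% in control 1 to 3 and by 2.21%, 1.40% and 1.33% in cKO 1 to 3. Each cKO library was below each control. The log2 ratio of mir-29a to mir-29c averaged -0.057 ± 0.0056 in the controls and -0.024 ± 0.0069 in the cKO libraries (SD, n = 3). The exact permutation p of 0.1 is the smallest that 3 against 3 allow, and adjusted over 6 pairs it was 0.6. In reads the excess at mir-29c was 261, 335 and 317 in control 1 to 3 and 176, 151 and 118 in cKO 1 to 3. In RPM (reads relative to library reads), the excess averaged 42.8 ± 7.08 in the controls and 22.9 ± 2.16 after rod Dicer1 deletion (SD, n = 3; exact permutation p = 0.1, two-sided), a quantity computed after the ratio had been seen. It is the reads counted only at mir-29c less those counted only at mir-29a, and it is a small part of either. Pairs of precursors of at least 1000 RPKM were sorted by their closest mature sequences, of either strand, and many pairs share a precursor. Among 18 pairs at most 1 substitution apart, mir-29a and mir-29c included, the groups did not overlap in 7 (38.9%). Among 20 pairs with an identical sequence on either strand, mir-29b-1 and mir-29b-2 included, they did not in 5 (25%). Over the 18 pairs the median size of the shift was 0.021 on the log2 scale, against 0.034 for mir-29a and mir-29c, which are among them. For mir-204 and mir-211, a pair of that set, the shift was -0.0057 and the groups overlapped.

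**Figure D3:**
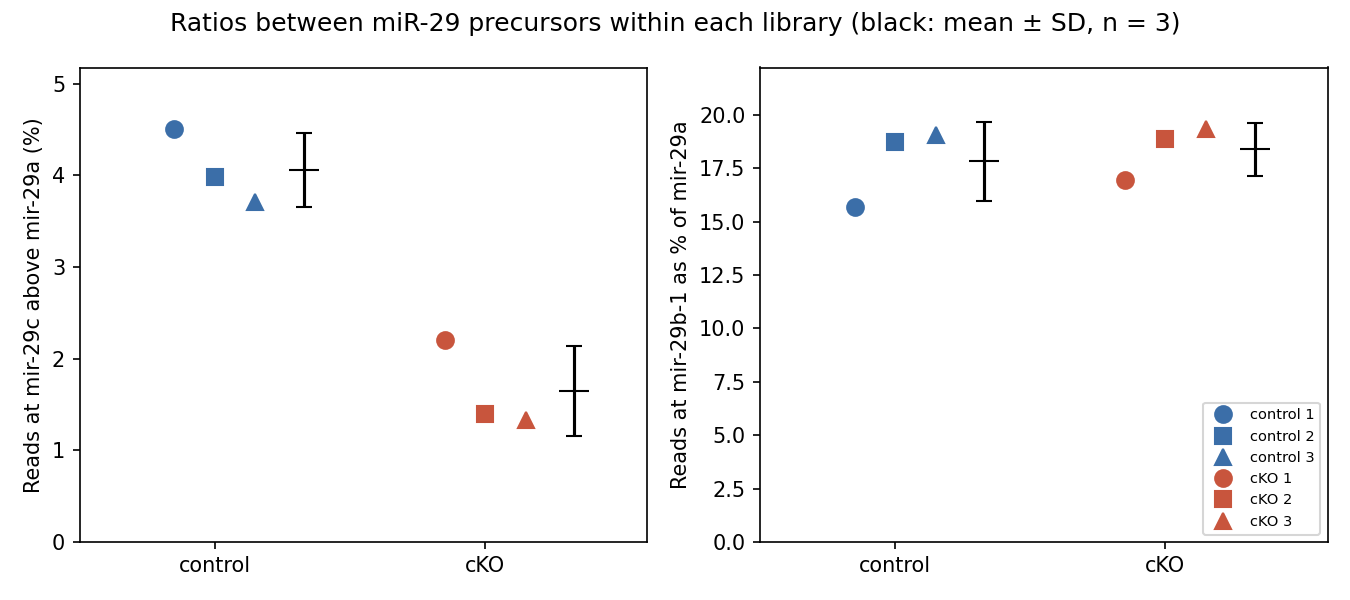
Left, percent by which reads at mir-29c exceeded those at mir-29a, and right, reads at mir-29b-1 as a percent of those at mir-29a (y axes from 0), in each library with mean ± SD in black. The left values are 3.71% to 4.50% in control and 1.33% to 2.21% in cKO retina, while the right values of the groups overlap.

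Precursors of similar abundance gave both larger and smaller changes. Next to mir-29c and mir-29a by mean level stood mir-129-2 and mir-107, known from neurons and from lipid metabolism, together with mir-130a and mir-148b. As deposited these 4 rose, at log2 fold changes of 0.94, 0.76, 0.89 and 0.99 (limma adjusted p = 4.5e-04, 8.5e-04, 9.0e-04 and 3.3e-04), and with median-of-ratios scaling none of them passed. The other neighbours, mir-101c, mir-378d and mir-378b, did not pass as deposited at 0.20, -0.045 and -0.024, and with median-of-ratios scaling they fell by 0.54, 0.78 and 0.76 (adjusted p = 0.023, 0.0040 and 0.0044). By log2 fold change as deposited the miR-29 precursors stood between these sets.

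Among the other maturation miRNAs of neurons most passed as deposited. Of 15 listed precursors 12 rose and 0 fell, and their median log2 change was 0.83, where 320 of 461 precursors (69.4%) rose over the table. The copies of mir-124, the most abundant miRNA of neurons in the list, did not pass (mir-124-3 at -0.071, adjusted p = 0.68), whereas mir-129-1 rose by 0.94. With median-of-ratios scaling 2 members of this list, the copies mir-138-1 and mir-138-2, rose and 3, the mir-124 copies, fell. Both mir-138 copies stood at 0.81 with that scaling and at 1.54 as deposited. Of the glial and progenitor miRNA mir-9 all 3 copies rose as deposited (mir-9-2 at 0.72), and with median-of-ratios scaling none passed. In the oligodendrocyte list mir-338 rose by 0.69, and mir-219-1 and mir-219-2 did not pass at 0.17 and 0.070. With median-of-ratios scaling none of the 3 passed, at -0.046, -0.55 and -0.65 (limma adjusted p = 0.89, 0.12 and 0.20). Many of these precursors are copies with a shared mature sequence, so the counts are not of separate measurements.

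Other tissues and cells that a retinal pool can hold were followed by their miRNAs. In the photoreceptor cluster mir-182 and mir-96 fell and mir-183 did not pass as deposited, and all 3 fell with median-of-ratios scaling. mir-182, known from photoreceptors, was by far the most abundant of these 3. Rods are the most numerous retinal cells, but which cells the fall came from was not tested. As deposited, increases were called for 2 of 2 precursors of the pigment epithelium, 5 of 5 endothelial and mural, 2 of 3 red cell, 2 of 3 leukocyte and 2 of 4 muscle precursors, of 2, 6, 3, 4 and 5 listed, where 69.4% of all tested precursors rose. The summed level of the tested precursors ranged from 655315 to 758334 RPKM in control and from 1197357 to 1475670 RPKM in cKO libraries for the pigment epithelium list. For the endothelial and mural list these ranges were 19230 to 35780 and 41845 to 55538 RPKM, for red cells 16553 to 19359 and 26667 to 31080 RPKM. For leukocytes they were 2113 to 2582 and 3735 to 5649 RPKM, and for muscle 926 to 1618 and 1558 to 2444 RPKM. The groups overlapped for muscle and were higher in cKO retina without overlap for the other lists, as was the case for 71.6% of all tested precursors. The 2 pigment epithelium precursors, mir-204 and mir-211, hold mature sequences at most 1 substitution apart, and their reads differed by at most 4.34%. Their calls are therefore not separate results, and their sum can count a read at both. The 2 muscle precursors called, mir-133a-1 and mir-133a-2, are also copies. Among these lists the endothelial mir-126 was the only precursor that also rose with median-of-ratios scaling (adjusted p = 0.020). From these lists mir-204, mir-126, mir-486, mir-150 and mir-133a-1 were at 0 in no library, with means over the 6 libraries of 637452, 12550, 23106, 3317 and 948 RPKM. Other members were often far lower. The red cell mir-451a and mir-144 averaged 280 and 46 RPKM, the leukocyte mir-142 and mir-155 357 and 39 RPKM, and the muscle mir-1a-2 52 RPKM. Only the mural mir-143 was above the precursor named for its list, at 24236 RPKM. The level of a single precursor is thus no measure of the content of such cells. The part of such cells in the miR-29 values was not tested.

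The precursors whose pattern over the 6 libraries was most like that of the family were mir-210, mir-532, mir-3966, mir-212 and mir-140. Likeness was the root-mean-square distance between log2(RPKM + 1) values, each centred on its own mean, from the mean of the 4 members, among 302 other precursors of at least 100 RPKM. The distance was 0.15 for mir-210, the miRNA of the hypoxia response, and for mir-532, 0.17 for mir-3966, and 0.18 for mir-212, an activity-regulated neuronal miRNA, and mir-140, known from cartilage. The median over all candidates was 0.36. The members themselves lay at 0.052 to 0.061, but the mean was taken from them and they share reads, so small distances were built in. mir-210 stood at 4852, 7113 and 6462 RPKM in control 1 to 3 and at 6146, 8131 and 8089 RPKM in cKO 1 to 3. As in the family, control 1 was the lowest of the controls and cKO 1 the lowest of the cKO libraries, which the choice by pattern favours. Its log2 fold change of 0.29 did not pass (limma adjusted p = 0.17), and median-of-ratios scaling turned it to -0.45 (adjusted p = 0.12). mir-3966 did not pass either, at 0.47 as deposited and -0.27 with that scaling (adjusted p = 0.051 and 0.28). mir-532, mir-212 and mir-140 rose as deposited, by 0.48, 0.69 and 0.79 (limma adjusted p = 0.026, 0.0061 and 0.022), and with median-of-ratios scaling none of the 3 passed, at -0.25, -0.045 and 0.052.

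**Figure D4:**
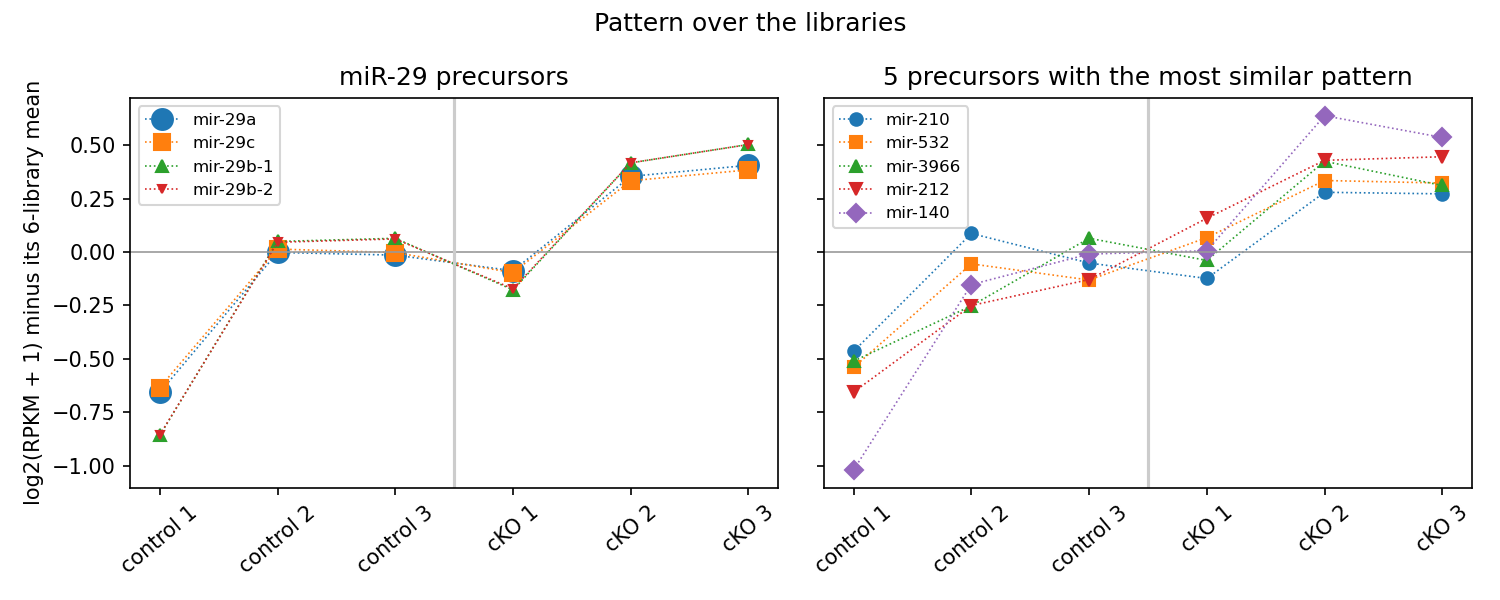
log2(RPKM + 1) as deposited, minus its mean over the 6 libraries (y axis), for the miR-29 precursors (left) and the 5 precursors with the most similar pattern (right); dotted lines only guide the eye. Control 1 is the lowest library for each of them, which for the precursors on the right the choice by pattern favours.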

How the data were processed

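The authors deposited 1 table of RPKM values for 855 precursors in 6 libraries. Per the labels' protocols, each library started from 1 µg of RNA, using an adapter-ligation kit and 11 rounds of PCR, and all 6 were sequenced in a 50-base single-end run. Per the submitters' processing notes Bowtie and mm9 were used; the sources used here give neither the annotation nor how mismatches and repeated matches were handled. The RefSeq sequences are of another build (GRCm38.p6), matched by name for all 4 members, and no coordinates are printed.

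RPKM times precursor length gave whole reads for 100.0% of 3276 values above 0 (tolerance 0.01 reads). Library totals worked out this way were 5480940 to 7478237 reads, and 1 read in an 88-base precursor is worth 1.52 to 2.07 RPKM. Lengths of 12 further precursors were taken as the shortest that gave whole reads.

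The genotype test was limma (version 3.58.1, R 4.3.3, eBayes with a mean-variance trend). It was fitted to log2(RPKM + 1) of the 461 precursors whose mean reached 10 RPKM. Tests were two-sided, with Benjamini-Hochberg adjustment over all of them and a threshold of 0.05. Fold changes are on this scale, which understates those of low precursors. Ratios between members were tested by exact permutation and intervals are Wilson intervals (scipy 1.17.1). Figures used matplotlib 3.10.9. The code was tested on simulated data.

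The members, lists and tests were chosen with earlier results of these data known. Precursors named are the members, up to 3 abundant ones of a list, the 2 next above and below mir-29a and mir-29c in level, and the 5 most alike in pattern. Of copies usually 1 is named. Alternatives covered pseudocount, filter, scaling, variance model, library weights, summed copies, limma voom on whole reads, blocking by replicate number and omitting each library.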

Additional observations from a re-analysis of the deposited data

How the results depend on the processing

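The sign of the miR-29 changes depended on the scaling. In the order mir-29a, mir-29b-1, mir-29b-2 and mir-29c, log2 fold changes with median-of-ratios scaling were -0.29, -0.24, -0.24 and -0.32. Totals without the 10 most abundant precursors gave -0.062, -0.015, -0.012 and -0.096, and totals without mir-182 gave -0.18, -0.13, -0.13 and -0.21. Quantile normalization gave -0.20, 0.039, -0.017 and -0.25. Limma voom on whole reads with median-of-ratios scaling gave -0.28, -0.24, -0.23 and -0.32, and that scaling without control 1 gave -0.45, -0.49, -0.49 and -0.48 (both added after seeing the data). No member passed in these fits (adjusted p = 0.059 to 0.98). Array weights made all 4 pass, at 0.42, 0.45, 0.46 and 0.39 (adjusted p = 0.019 to 0.040).

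With the replicate number of the labels as a block all 4 passed, at 0.45, 0.50, 0.50 and 0.42 (adjusted p = 0.0099 to 0.014), among 338 precursors that rose and 10 that fell. With the block and median-of-ratios scaling, added after seeing the data, they stood at -0.29, -0.24, -0.24 and -0.32 (adjusted p = 0.14 to 0.27; 16 rose, 46 fell). Deviations of same-numbered libraries correlated at 0.19, 0.26 and 0.0093 across precursors, against at most 0.048 between different numbers. Each library correlated best with its own number except control 3 and cKO 3. These values do not settle whether the numbers pair the samples, as the mice of each pool are not given. The main test did not use the numbers, and as deposited the call of the members depends on that choice.

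Leaving out each library moved mir-29a from 0.23 to 0.61, mir-29b-1 from 0.19 to 0.71, mir-29b-2 from 0.20 to 0.71 and mir-29c from 0.20 to 0.57. The differences in log2 ratio ran from -0.10 to 0.041 (mir-29a to mir-29b-1), -0.11 to 0.036 (mir-29a to mir-29b-2), -0.010 to 0.14 (mir-29b-1 to mir-29c) and -0.0056 to 0.14 (mir-29b-2 to mir-29c), with the sign changed only without control 1. At 0.031 to 0.038 that of mir-29a to mir-29c kept its sign.

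Among all tested precursors 320 rose and 8 fell as deposited. The numbers were 10 and 46 with median-of-ratios scaling, 12 and 29 with quantile normalization, 57 and 29 without the 10 most abundant precursors, 20 and 36 without mir-182, 9 and 46 with voom and median-of-ratios scaling, and 15 and 47 with that scaling without control 1. Leaving out a library gave 252 to 322 and 4 to 12. Array weights gave 14 falls and a minimum of 100 RPKM 4. Pseudocount, filter, trend and summed copies changed no member's call or sign. The causes were not tested.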
